A study of Mus musculus with 4 samples.

Results

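The insulin-like growth factor (IGF) axis of mouse bone marrow was followed in 8 genes, the ligand gene Igf1, the receptor gene Igf1r and the binding protein genes Igfbp2, Igfbp3, Igfbp4, Igfbp5, Igfbp6 and Igfbp7. They were taken by symbol from the 31053 features of the count matrices, with earlier results of these data known. All 8 had counts in each of the 4 libraries, which is therefore no result about the family. Their levels are described by cell class, irradiation and genotype.

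IGF1 is a secreted growth factor that activates the receptor tyrosine kinase IGF1R and, through it, the PI3 kinase and MAP kinase pathways. Most IGF outside cells is held by binding proteins, which lengthen its half-life, keep it from the receptor or release it when proteases cleave them. In bone and marrow, IGFs are made locally as well as delivered from the liver, and growth hormone is a main inducer of the ligand.

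Single-cell RNA was sequenced (10x Chromium, 3′ chemistry v3.1) from tibial marrow of C57Bl/6JCrl mice, in 4 libraries that cross genotype with irradiation. All mice carried floxed alleles of Vegfc, a vascular growth factor gene, and per the labels both genotypes received 5 tamoxifen doses by gavage at 7 to 8 weeks of age. The irradiated Vegfc-deleted group was RosaCreERT2;Vegfc flox/flox with 4 Gy to the whole body, and the irradiated control group was Vegfc flox/flox with the same dose. The non-irradiated Vegfc-deleted and the non-irradiated control group had the same genotypes and no irradiation. Irradiation was given 2 weeks after tamoxifen and marrow was taken 7 days later, from 2 pooled mice in each irradiated library and 3 pooled mice in each non-irradiated library. Elsewhere the labels give 3 irradiated mice per genotype, and name tamoxifen for samples 1 to 3, which leaves out the irradiated Vegfc-deleted sample. The Cre recombinase is driven from the Rosa26 locus in all tissues, so deletion was not limited to a cell type. The controls carried no Cre, so effects of Cre and of the Vegfc deletion cannot be told apart. Cells were sorted as viable and negative for lineage markers, CD45 and Ter119 after enzymatic digestion, so shares describe this sort and not the marrow.

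Libraries held 54462123 to 77284922 unique molecule counts (UMIs). After filtering, 3835 to 5204 cells per library were kept, with medians of 7632 to 9866 UMIs per cell. Between 3 and 21 cell barcodes were shared by any pair of libraries. Cell classes were rebuilt by clustering without the IGF genes and named from marker lists, and 3 of 33 clusters stayed unnamed. Despite the CD45 and Ter119 gates, haematopoietic classes were present, with 295 to 1903 erythroid cells per library. Vegfc in LepR+ stromal cells stood at 23.6 counts per 1000000 UMIs of the class (CPM) in irradiated Vegfc-deleted and 174 CPM in irradiated control cells, 7.26-fold lower (5.27 to 10.6). Without irradiation it stood at 17.4 CPM in Vegfc-deleted and 167 CPM in control cells, 9.56-fold lower (7.96 to 11.7). The labels do not name the floxed exons of Vegfc, and 3′ tags need not lie in them. With 1 library per group there was no replicate, so no p-value is given. Intervals are at 95%, exact Poisson for CPM, exact binomial for shares and exact conditional for ratios. Those for differences between irradiation ratios are normal approximations. All of them hold counting error alone. A gene was called higher or lower when its CPM differed at least 1.5-fold and at least 1 of the 2 libraries held 30 UMIs of it. UMIs count molecules at the 3′ end and do not scale with transcript length.

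On GRCm38, Igf1 (ENSMUSG00000020053) lies at chr10:87858265-87937042 on the + strand and Igf1r (ENSMUSG00000005533) at chr7:67952827-68233668 on the + strand. Igfbp2 (ENSMUSG00000039323, chr1:72824503-72852474, + strand) and Igfbp5 (ENSMUSG00000026185, chr1:72857932-72874884, - strand) are neighbours that are transcribed towards each other. Igfbp3 (ENSMUSG00000020427) lies at chr11:7206086-7213923 on the - strand and Igfbp4 (ENSMUSG00000017493) at chr11:99041244-99054392 on the + strand. Igfbp6 (ENSMUSG00000023046) lies at chr15:102144362-102149511 on the + strand and Igfbp7 (ENSMUSG00000036256) at chr5:77349240-77408041 on the - strand. All are protein-coding, and the coordinates are those of whole genes.

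The promoters of Igfbp4, Igfbp5 and Igfbp7 are shown because these binding protein genes had the highest levels and Igfbp5 and Igfbp7 moved with irradiation. Each sequence holds the 250 bases before the RefSeq start site, 5′ to 3′ on the strand of the gene (RefSeq on GRCm38.p6). They span chr11:99040994-99041243 (+) for Igfbp4, chr1:72874866-72875115 (-) for Igfbp5 and chr5:77408046-77408295 (-) for Igfbp7. Capitals mark TATAAA in Igfbp4, TATTTAA in Igfbp5 and GGGCGG or its reverse complement CCGCCC in Igfbp7.
Igfbp4: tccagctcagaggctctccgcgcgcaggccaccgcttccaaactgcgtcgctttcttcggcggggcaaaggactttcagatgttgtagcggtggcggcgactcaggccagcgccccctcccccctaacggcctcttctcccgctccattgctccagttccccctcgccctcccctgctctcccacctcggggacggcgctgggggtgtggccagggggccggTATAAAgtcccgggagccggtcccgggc
Igfbp5: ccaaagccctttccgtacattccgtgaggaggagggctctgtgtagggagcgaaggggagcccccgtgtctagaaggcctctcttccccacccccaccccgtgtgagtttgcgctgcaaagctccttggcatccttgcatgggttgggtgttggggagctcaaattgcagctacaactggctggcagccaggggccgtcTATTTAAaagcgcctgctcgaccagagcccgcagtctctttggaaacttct
Igfbp7: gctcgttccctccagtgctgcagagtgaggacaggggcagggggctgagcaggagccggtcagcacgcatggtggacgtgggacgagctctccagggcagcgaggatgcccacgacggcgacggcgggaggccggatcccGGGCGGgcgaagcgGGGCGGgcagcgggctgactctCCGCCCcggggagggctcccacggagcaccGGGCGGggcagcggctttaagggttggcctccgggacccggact
The first 2 motifs are forms of the TATA box, which places the start of transcription, and GGGCGG is the GC box bound by Sp1-family factors. TATAAA began 28 bases before the start of Igfbp4, and TATTTAA began 51 bases before that of Igfbp5. Igfbp7 held 4 GC boxes, beginning 110, 96, 74 and 44 bases before its start, the one at 74 on the other strand. Searched on both strands in the same 250 bases of 32851 promoters, TATAAA was found in 12.4%, TATTTAA in 4.18% and GGGCGG in 32.7%. The motifs do not overlap one another and were chosen after the promoters were read. The FoxO core GTAAACA, present in 3.17% of promoters, was in none of the windows of the 8 members, which says only that these letters are not there. A match is a description of the sequence, not a binding site.

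Among classes with at least 30 cells in a library, the level of Igf1 was highest in LepR+ stromal cells, with monocytes and macrophages next by median. LepR+ stromal cells are the perivascular cells of the marrow that supply Cxcl12 and stem cell factor. In LepR+ stromal cells Igf1 stood at 542 CPM (505 to 580) in irradiated Vegfc-deleted, 587 CPM (565 to 610) in irradiated control, 511 CPM (494 to 529) in non-irradiated Vegfc-deleted and 395 CPM (384 to 407) in non-irradiated control mice. The level was lowest in the non-irradiated controls, and the other libraries lay within a narrow range above it. The share of LepR+ cells with an Igf1 UMI was 75.5%, 83.5%, 80.7% and 80.3% in the same groups, against 1.36%, 1.23%, 1.75% and 1.94% of erythroid cells, a class that should lack it. Median depths were 6730, 9360, 8656 and 9228 UMIs in LepR+ cells, and 7514, 9026, 9341 and 7221 UMIs in erythroid cells. Over 13 classes with at least 30 cells in a library, the median level was 527 CPM in LepR+ cells, 228 CPM in monocytes and macrophages and 47.3 CPM in sinusoidal endothelial cells. The ranges of class levels over libraries did not overlap between LepR+ cells and macrophages, but those of macrophages and sinusoidal cells did. A cluster within the macrophage class, given below, stood above LepR+ cells. Pericytes and smooth muscle cells, too few to rank and given at the end, did so in non-irradiated controls.

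**Figure D1:**
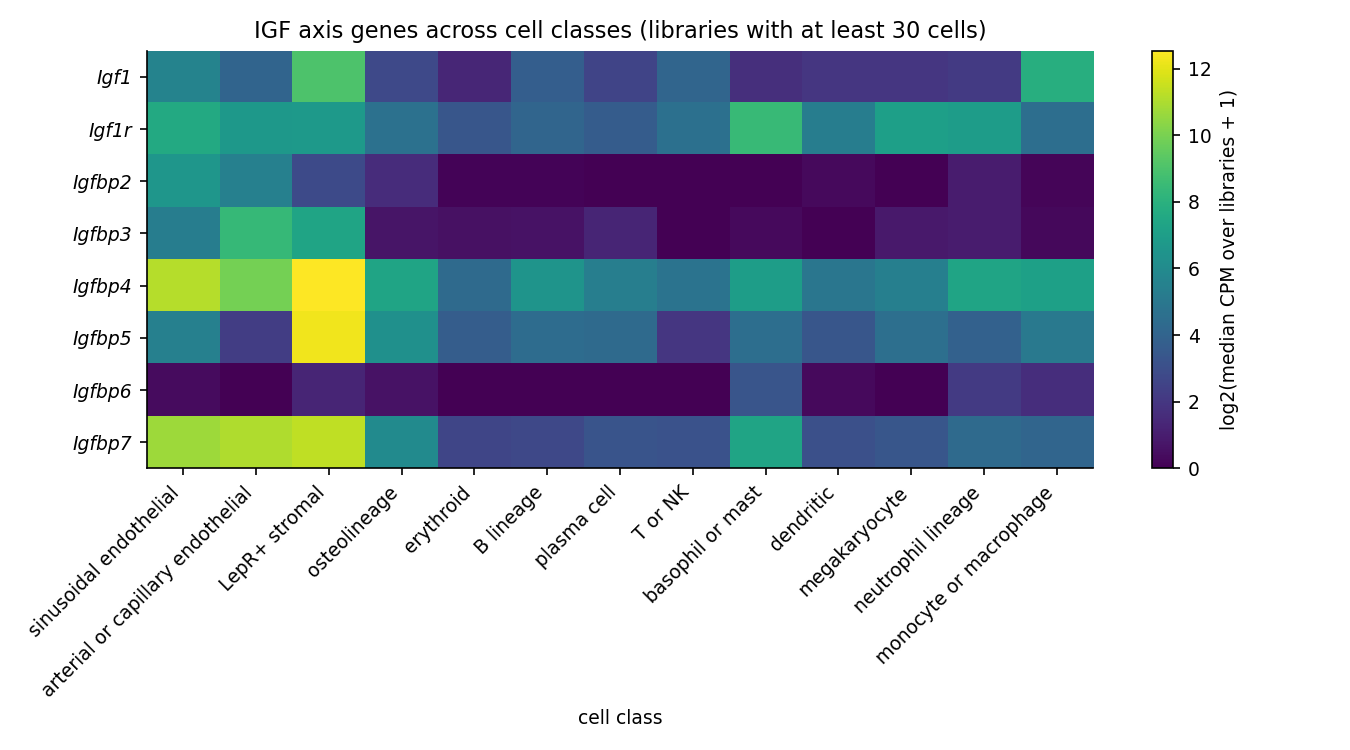
Levels of the 8 IGF axis genes (rows) in 13 cell classes (columns), as log2 of the median CPM over the libraries with at least 30 cells of the class, plus 1. Igfbp4 and Igfbp5 are highest in LepR+ stromal cells, at 5942 and 4890 CPM, and Igfbp2 in sinusoidal endothelial cells, at 93.7 CPM. Igf1r is highest in basophils and mast cells, at 346 CPM over the 2 control libraries alone.

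Because the classes made up different parts of each sort, the origin of Igf1 counts varied between libraries. LepR+ cells held 23.9% of all Igf1 UMIs in the irradiated Vegfc-deleted library, 61.7% in the irradiated control, 87.2% in the non-irradiated Vegfc-deleted and 88.3% in the non-irradiated control library. Monocytes and macrophages held 53.7%, 13.8%, 3.95% and 3.70% in the same groups, from 696, 161, 194 and 66 cells. Sinusoidal endothelial cells held 12.96%, 15.0%, 5.23% and 2.36%, more than macrophages in the irradiated control and the non-irradiated Vegfc-deleted library. The irradiated Vegfc-deleted library was thus the one in which macrophages held more Igf1 UMIs than LepR+ cells. As a level within the class, Igf1 stood at 205, 266, 64.7 and 251 CPM in monocytes and macrophages, lowest in non-irradiated Vegfc-deleted mice. The class joined clusters of unlike level and mix. In cluster 13, of 240, 85, 70 and 39 cells with few UMIs, Igf1 stood at 698, 788, 650 and 632 CPM. Each of these values was above that of the LepR+ class in the same library. In cluster 20, of 145, 24, 115 and 20 cells, Igf1 stood at 5.01, 3.40, 0.484 and 0 CPM.

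Igf1r, the receptor gene, was measured in haematopoietic, endothelial and stromal classes. Its median level was 346 CPM in basophils and mast cells, 193 CPM in sinusoidal endothelial cells, 135 CPM in megakaryocytes, 120 CPM in the neutrophil lineage and 107 CPM in LepR+ cells. From the second of these on, each class overlapped the next in its range over libraries. Basophils and mast cells had 30 cells in the 2 control libraries alone, so no Vegfc-deleted library enters their median. In sinusoidal cells Igf1r stood at 164 CPM in irradiated Vegfc-deleted, 188 CPM in irradiated control, 198 CPM in non-irradiated Vegfc-deleted and 240 CPM in non-irradiated control mice. In LepR+ cells the levels were 74.1, 103, 115 and 110 CPM, lowest in irradiated Vegfc-deleted mice. The share of cells with a UMI was 62.4%, 71.9%, 71.7% and 80.9% in sinusoidal cells and 1.02%, 4.10%, 17.5% and 13.3% in erythroid cells. The median depth of sinusoidal cells was 7414, 9842, 9408 and 9670 UMIs.

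The binding protein genes divided between the stroma and the endothelium. Igfbp4, whose product restrains IGF action until Pappa cleaves it, was led by LepR+ cells, with 4942 to 7908 CPM over the libraries, followed by sinusoidal cells with 1872 to 2894 CPM. Igfbp5, whose product is stored in bone matrix, was led by LepR+ cells, with 1697 to 10308 CPM and 79.5% to 97.1% of its UMIs, whereas osteolineage cells with enough cells had 57.5 CPM in irradiated Vegfc-deleted and 96.6 CPM in irradiated control mice. Igfbp7, a low-affinity IGF binder of the vascular basement membrane, stood at 1621 to 3372 CPM in LepR+ cells and 1404 to 1778 CPM in sinusoidal cells, and these ranges overlapped. Among classes with at least 30 cells in a library, the ranges of Igfbp4 and of Igfbp5 in LepR+ cells did not overlap those of the next class. Pericytes and smooth muscle cells were too few for this ranking. Their Igfbp5 level, given at the end, was above that of LepR+ cells in irradiated controls.

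Igfbp2, whose product also binds integrins, had 84.2% to 93.8% of its UMIs in sinusoidal cells. Arterial or capillary endothelium came next, at 42.6 CPM in the irradiated controls, within the sinusoidal range. The sinusoidal range of 37.9 to 139 CPM did not overlap that of LepR+ cells, 3.61 to 9.84 CPM. Igfbp3, which encodes the main IGF carrier of blood, stood at 110 to 277 CPM in LepR+ cells and 21.3 to 46.3 CPM in sinusoidal cells. Arterial or capillary endothelium had 334 CPM of Igfbp3 in the irradiated controls, where alone it had 30 cells, and 181 of its 259 UMIs were in 1 cell. Igfbp6, whose product prefers IGF2, was nearly absent, with 21 to 195 UMIs in a whole library. Its highest median was 9.01 CPM, in basophils and mast cells of the 2 control libraries. Igfbp1, which is not a member, had 0 UMIs in LepR+ and sinusoidal cells of every library.

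**Figure D2:**
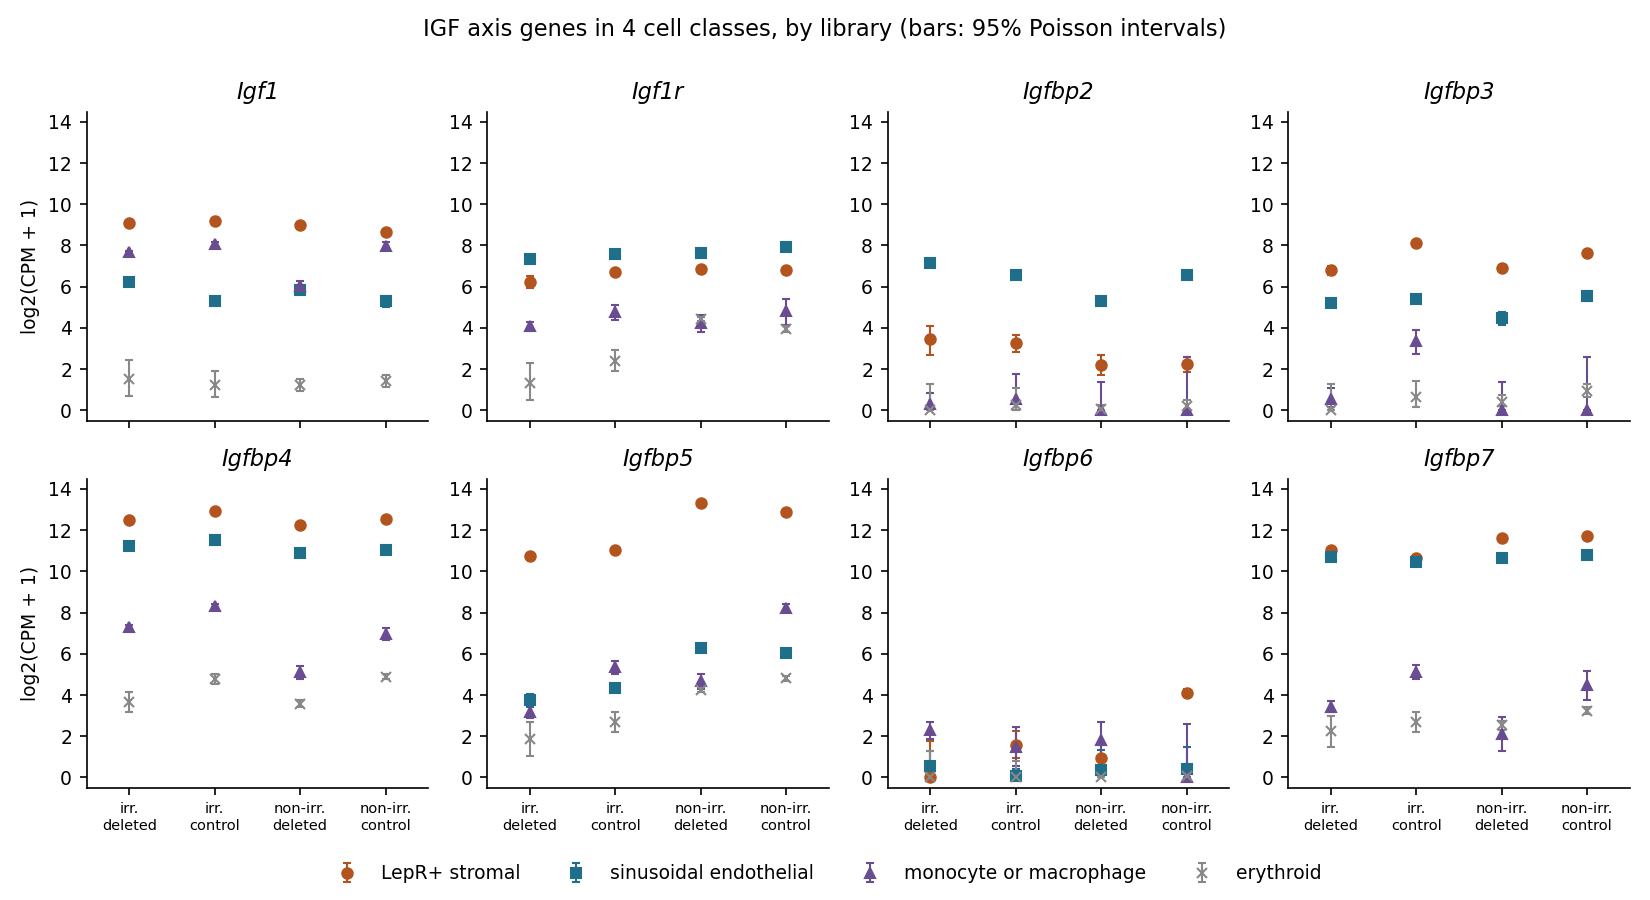
Level of each IGF axis gene, as log2(CPM + 1), in LepR+ stromal, sinusoidal endothelial, monocyte or macrophage and erythroid cells of the irradiated Vegfc-deleted, irradiated control, non-irradiated Vegfc-deleted and non-irradiated control library. Points are class sums and bars their 95% Poisson intervals, and Igfbp5 in LepR+ cells is lower in both irradiated libraries (1697 and 2125 CPM) than in both non-irradiated ones (10308 and 7656 CPM).

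The first comparison asked how irradiation changed the axis in LepR+ stromal cells. Igfbp5 fell in both genotypes and Igfbp7 fell with it, Igfbp4 stayed within 1.5-fold, and Igf1 in controls was 1.48-fold above the non-irradiated level, short of the call. In controls 4 of 8 members were called, 1 higher and 3 lower, where 27.8% of 11336 genes were called in either direction. In Vegfc-deleted mice 3 members were called, all lower, of the 6 that had 30 UMIs, where 30.5% of 10347 genes were. Both counts rest on few genes, so the members are described by their own levels. The median log2 ratio of members was -0.37 in Vegfc-deleted mice and 0.15 in controls, against 0.12 and 0.16 over all genes. LepR+ cells numbered 192 in irradiated Vegfc-deleted, 474 in irradiated control, 766 in non-irradiated Vegfc-deleted and 1215 in non-irradiated control mice. Cluster 12 held most of them in the irradiated libraries (125 and 378 cells) and cluster 2 in the non-irradiated libraries (622 and 1069 cells). Scaling by TMM factors in place of class totals lowers every irradiation log2 ratio by 0.18 in LepR+ cells and by 0.12 in sinusoidal cells.

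Igfbp5 stood at 1697 CPM (1632 to 1764) in irradiated Vegfc-deleted, 2125 CPM (2083 to 2167) in irradiated control, 10308 CPM (10231 to 10386) in non-irradiated Vegfc-deleted and 7656 CPM (7604 to 7707) in non-irradiated control mice. Both irradiated libraries lay far below both non-irradiated ones. The level fell 6.07-fold in Vegfc-deleted mice (5.84 to 6.32) and 3.60-fold in controls (3.53 to 3.68). It was lower in the irradiated libraries within each LepR+ cluster too. In cluster 2 it stood at 5393 CPM in irradiated Vegfc-deleted, 5235 CPM in irradiated control, 10450 CPM in non-irradiated Vegfc-deleted and 7771 CPM in non-irradiated control mice. The irradiated values of cluster 2 came from 14 and 37 cells. In cluster 12 Igfbp5 stood at 1500, 1850, 10981 and 5025 CPM, from 6 and 5 cells in the non-irradiated libraries. In cluster 15, which held few UMIs per cell, it stood at 504, 1602, 7641 and 4711 CPM. The size of the difference therefore depended on the cluster, and its direction did not.

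Fewer LepR+ cells held any Igfbp5 UMI after irradiation. The share was 73.4% in irradiated Vegfc-deleted, 88.8% in irradiated control, 98.7% in non-irradiated Vegfc-deleted and 98.6% in non-irradiated control mice. With every cell thinned to 1500 UMIs it was 60.6%, 71.4%, 97.8% and 94.3%, with 32, 37, 30 and 18 cells too shallow and left out. Erythroid cells held Igfbp5 UMIs in 2.37%, 5.53%, 19.7% and 28.3% of cells in the same groups, at 2.65, 5.47, 18.2 and 27.0 CPM. Free haemoglobin RNA moved with irradiation too, at 2993, 2158, 9903 and 9132 CPM over 4 genes in LepR+ cells. The 13 osteolineage markers summed to 4059, 3260, 10572 and 10664 CPM in the class, with 3 at 0 in irradiated Vegfc-deleted mice, and the 12 LepR+ markers to 39778, 47768, 40406 and 43208 CPM. The part of these in the difference was not tested.

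**Figure D3:**
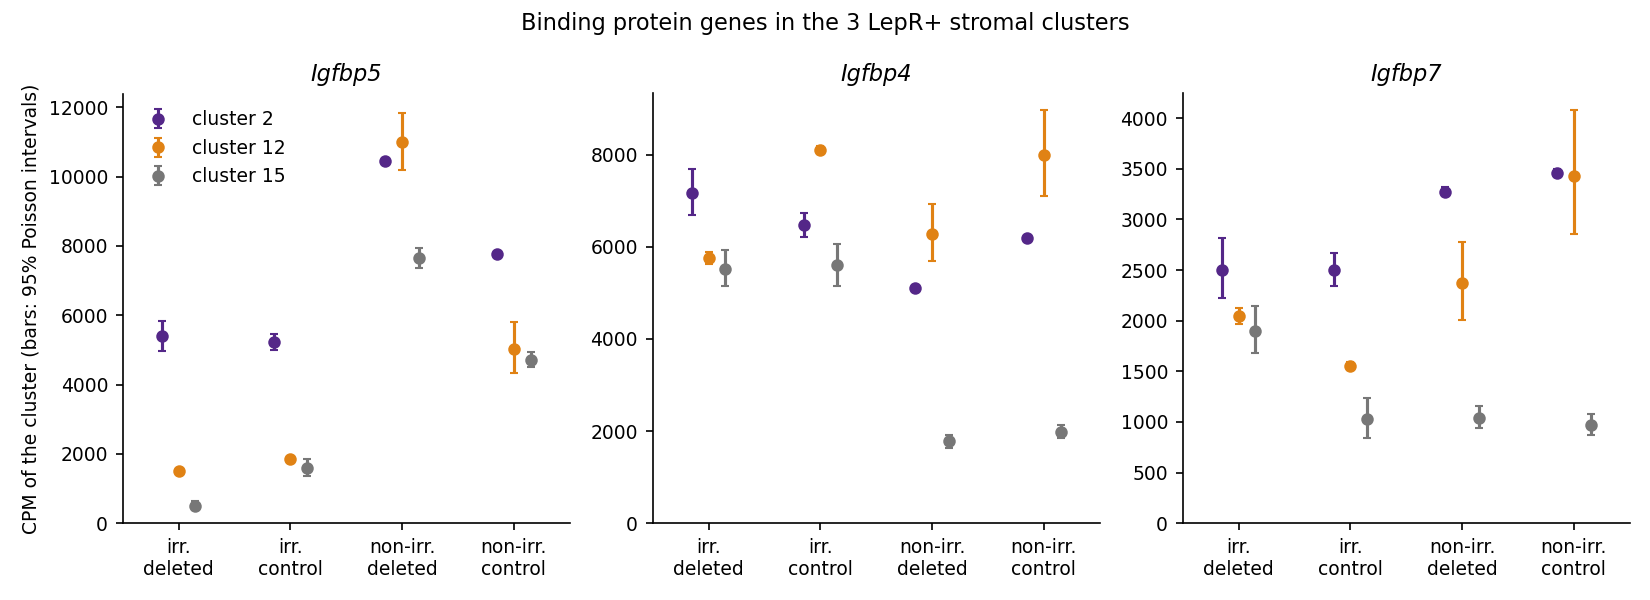
Levels of Igfbp5, Igfbp4 and Igfbp7 in CPM within the 3 clusters named LepR+ stromal, by library, with 95% Poisson intervals. Igfbp5 is lower in both irradiated libraries than in both non-irradiated ones in clusters 15, 2 and 12, whereas Igfbp4 is not. In cluster 2 the irradiated libraries have 14 and 37 cells, and in cluster 12 the non-irradiated ones have 6 and 5.

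Igfbp7 stood at 2066 CPM in irradiated Vegfc-deleted, 1621 CPM in irradiated control, 3149 CPM in non-irradiated Vegfc-deleted and 3372 CPM in non-irradiated control LepR+ cells. The irradiated libraries were the lower ones in both genotypes. It fell 1.52-fold in Vegfc-deleted mice (1.47 to 1.58) and 2.08-fold in controls (2.03 to 2.13). In Vegfc-deleted mice the call was lost in cells thinned to 1500 UMIs, at a log2 ratio of -0.39. In the low-UMI cluster 15 Igfbp7 stood at 1903, 1025, 1044 and 971 CPM, so there the irradiated libraries were not the lower ones.

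Igfbp4 stood at 5836 CPM in irradiated Vegfc-deleted, 7908 CPM in irradiated control, 4942 CPM in non-irradiated Vegfc-deleted and 6047 CPM in non-irradiated control LepR+ cells. The irradiated level was above the non-irradiated one in each genotype, by log2 ratios of 0.24 (0.21 to 0.27) in Vegfc-deleted mice and 0.39 (0.37 to 0.41) in controls, both short of the call. With Igfbp5 lower, the mix of binding protein transcripts changed its order. Igfbp5 made up 17.5% of the UMIs of the 6 binding protein genes in irradiated Vegfc-deleted, 17.8% in irradiated control, 55.6% in non-irradiated Vegfc-deleted and 44.3% in non-irradiated control mice. Igfbp4 made up 60.0%, 66.2%, 26.7% and 35%, and was the leading binding protein gene of LepR+ cells in the irradiated libraries. All 6 genes together stood at 9719, 11942, 18525 and 17290 CPM.

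**Figure D4:**
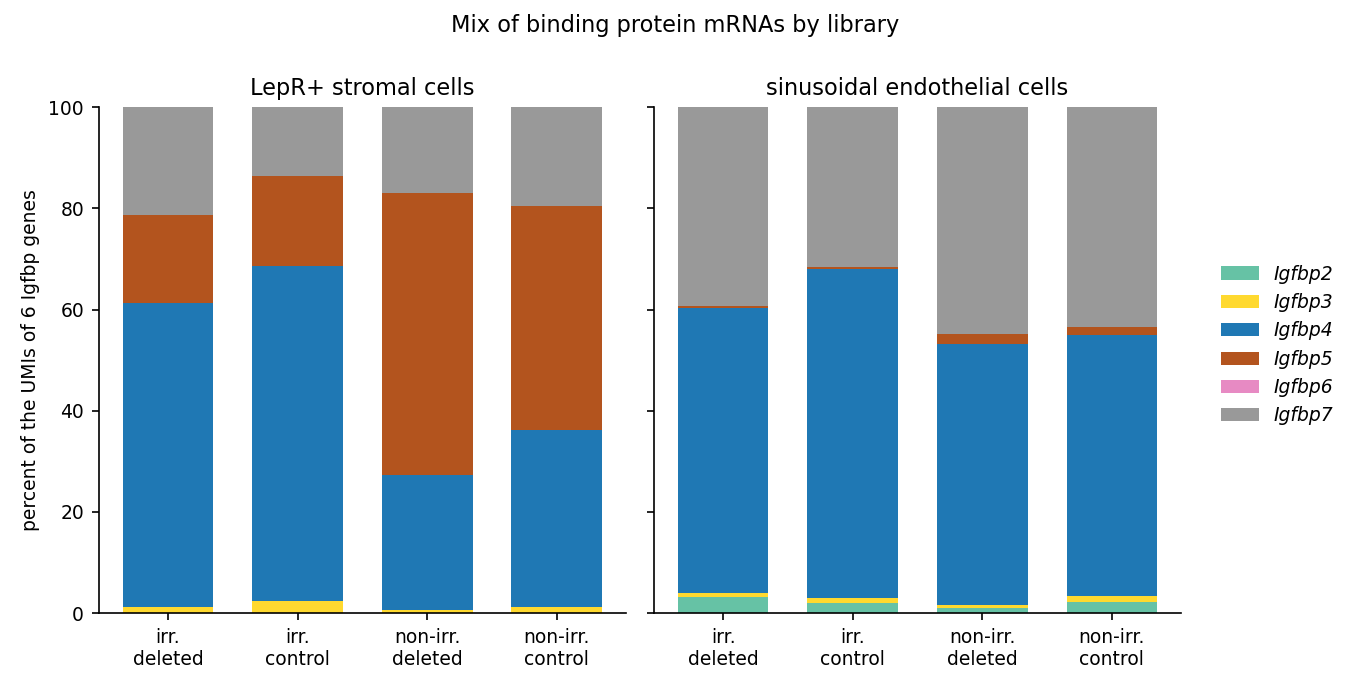
Share of each of 6 binding protein genes in their summed UMIs, in percent, for LepR+ stromal and sinusoidal endothelial cells of each library. In LepR+ cells Igfbp5 covers 17.5% and 17.8% in the irradiated Vegfc-deleted and control library and 55.6% and 44.3% in the non-irradiated ones, while in sinusoidal cells Igfbp4 and Igfbp7 cover most of the bar in every library.

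Igf1 in LepR+ cells had log2 ratios under irradiation of 0.08 (-0.03 to 0.19) in Vegfc-deleted mice and 0.57 (0.50 to 0.64) in controls. The second value passed 1.5-fold when clusters were finer (0.59) and in thinned cells (0.67), and the first lay below 0 with TMM factors (-0.09) and with the stricter cell filter (-0.10). Igf1r was called lower in Vegfc-deleted mice, 1.54-fold (1.27 to 1.91), from 113 and 764 UMIs, and in controls its log2 ratio was -0.10 (-0.25 to 0.06), or 0.08 with the stricter cell filter. That call was lost at Leiden resolution 2 (-0.49), without doublet removal (-0.48), with a prior of 5 counts (-0.58), with the stricter cell filter (-0.19) and without low-UMI clusters (-0.44). In thinned cells the log2 ratio was -1.21.

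Igfbp3 had log2 ratios of -0.14 (-0.39 to 0.10) in Vegfc-deleted mice and 0.51 (0.41 to 0.61) in controls, neither past the call. The first value was 0.48 in thinned cells. Igfbp2 was called higher in irradiated controls, 2.30-fold (1.45 to 3.66), from 39 UMIs in 17 irradiated and 41 UMIs in 26 non-irradiated cells, and thinned cells gave a log2 ratio of 0.17. In Vegfc-deleted mice Igfbp2 had 15 irradiated and 24 non-irradiated UMIs, too few for a call, and 12 of the 15 were in 1 cell. Igfbp6 was called lower in irradiated controls on the strength of the non-irradiated library, where 139 of 180 UMIs were in 1 of 8 cells. Its log2 ratio was -2.97, or -1.64 without the highest cell of each library, and 1.60 without doublet removal. In irradiated Vegfc-deleted mice it was found in 0 of 192 LepR+ cells, where a count of 0 limits the share of cells with a UMI to 1.56% and sets no limit on cells that express it undetected. In non-irradiated Vegfc-deleted mice 2 cells held 6 UMIs.

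The second comparison asked how irradiation changed the axis in sinusoidal endothelial cells, which line the marrow sinusoids. Igfbp2 and Igfbp3 rose in Vegfc-deleted mice, and in controls neither passed the call, except Igfbp3 in thinned cells, which was lower. In Vegfc-deleted mice 3 of 7 members with enough UMIs were called, 2 higher and 1 lower, where 22.4% of 10001 genes were called. In controls 1 of 7 members was called, lower, where 25.9% of 11342 genes were. The median log2 ratio of members was 0.37 in Vegfc-deleted mice and -0.16 in controls, against 0.15 and 0.18 over all genes. Sinusoidal cells numbered 740 in irradiated Vegfc-deleted, 1558 in irradiated control, 368 in non-irradiated Vegfc-deleted and 314 in non-irradiated control mice. Cluster 0 held most of them in the irradiated libraries (673 and 1417 cells) and cluster 8 in the non-irradiated ones (317 and 289 cells).

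Igfbp2 stood at 139 CPM (130 to 149) in irradiated Vegfc-deleted, 93.5 CPM (89.0 to 98.2) in irradiated control, 37.9 CPM (31.9 to 44.8) in non-irradiated Vegfc-deleted and 93.9 CPM (83.4 to 105) in non-irradiated control mice. The low library was the non-irradiated Vegfc-deleted one, and both control libraries were alike. The level rose 3.66-fold in Vegfc-deleted mice (3.06 to 4.42), and in controls the log2 ratio was -0.01 (-0.19 to 0.18). The share of sinusoidal cells with an Igfbp2 UMI was 39.9%, 36.1%, 20.4% and 36.6%, against 0%, 0.205%, 0.0531% and 0.210% of erythroid cells. The 2 irradiation ratios differed by 1.88 on the log2 scale (1.56 to 2.19), deleted minus control.

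Igfbp3 stood at 36.1 CPM in irradiated Vegfc-deleted, 41.7 CPM in irradiated control, 21.3 CPM in non-irradiated Vegfc-deleted and 46.3 CPM in non-irradiated control sinusoidal cells. Here too the non-irradiated Vegfc-deleted library was the lowest, at 78 UMIs. The level rose 1.69-fold in Vegfc-deleted mice (1.31 to 2.22), and in controls the log2 ratio was -0.16 (-0.41 to 0.12). In thinned cells the value was 1.35 in Vegfc-deleted mice and -0.61, called lower, in controls. Leaving out the highest cell of each library turned the control value to 0.17. The 2 ratios differed by 0.91 on the log2 scale (0.46 to 1.36).

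Igfbp5 was low in this class, at 12.5 CPM in irradiated Vegfc-deleted, 19.1 CPM in irradiated control, 76.1 CPM in non-irradiated Vegfc-deleted and 65.6 CPM in non-irradiated control mice. Both irradiated libraries were the lower ones. It fell 6.05-fold in Vegfc-deleted mice (4.71 to 7.93) and 3.43-fold in controls (2.87 to 4.10), a difference between the ratios of -0.82 on the log2 scale (-1.26 to -0.38), with sizes close to those in LepR+ cells and alongside the erythroid levels given above. The share of cells with a UMI was 6.49%, 11.6%, 32.9% and 33.4%, above the erythroid shares. The 12 LepR+ markers summed to 597, 672, 460 and 637 CPM in sinusoidal cells, with none at 0. The part of free RNA in these Igfbp5 counts was not tested.

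The other members did not pass the call in sinusoidal cells. Igfbp4 stood at 2421, 2894, 1872 and 2117 CPM in irradiated Vegfc-deleted, irradiated control, non-irradiated Vegfc-deleted and non-irradiated control mice, with log2 ratios under irradiation of 0.37 (0.33 to 0.41) in deleted mice and 0.45 (0.41 to 0.49) in controls. Igfbp7 stood at 1688, 1404, 1625 and 1778 CPM, with log2 ratios of 0.05 in Vegfc-deleted mice (-0.06 with TMM factors) and -0.34 in controls. Igf1r had log2 ratios of -0.27 in Vegfc-deleted mice (0.23 in thinned cells) and -0.35 in controls. Igf1 had log2 ratios of 0.39 (0.15 to 0.63) in Vegfc-deleted mice and 0.03 (-0.25 to 0.33) in controls, where it lay below 0 with TMM factors (-0.09), in thinned cells (-0.55) and with a prior of 5 (-0.01). Igfbp6 had 3, 1, 1 and 1 UMIs, too few to compare.

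**Figure D5:**
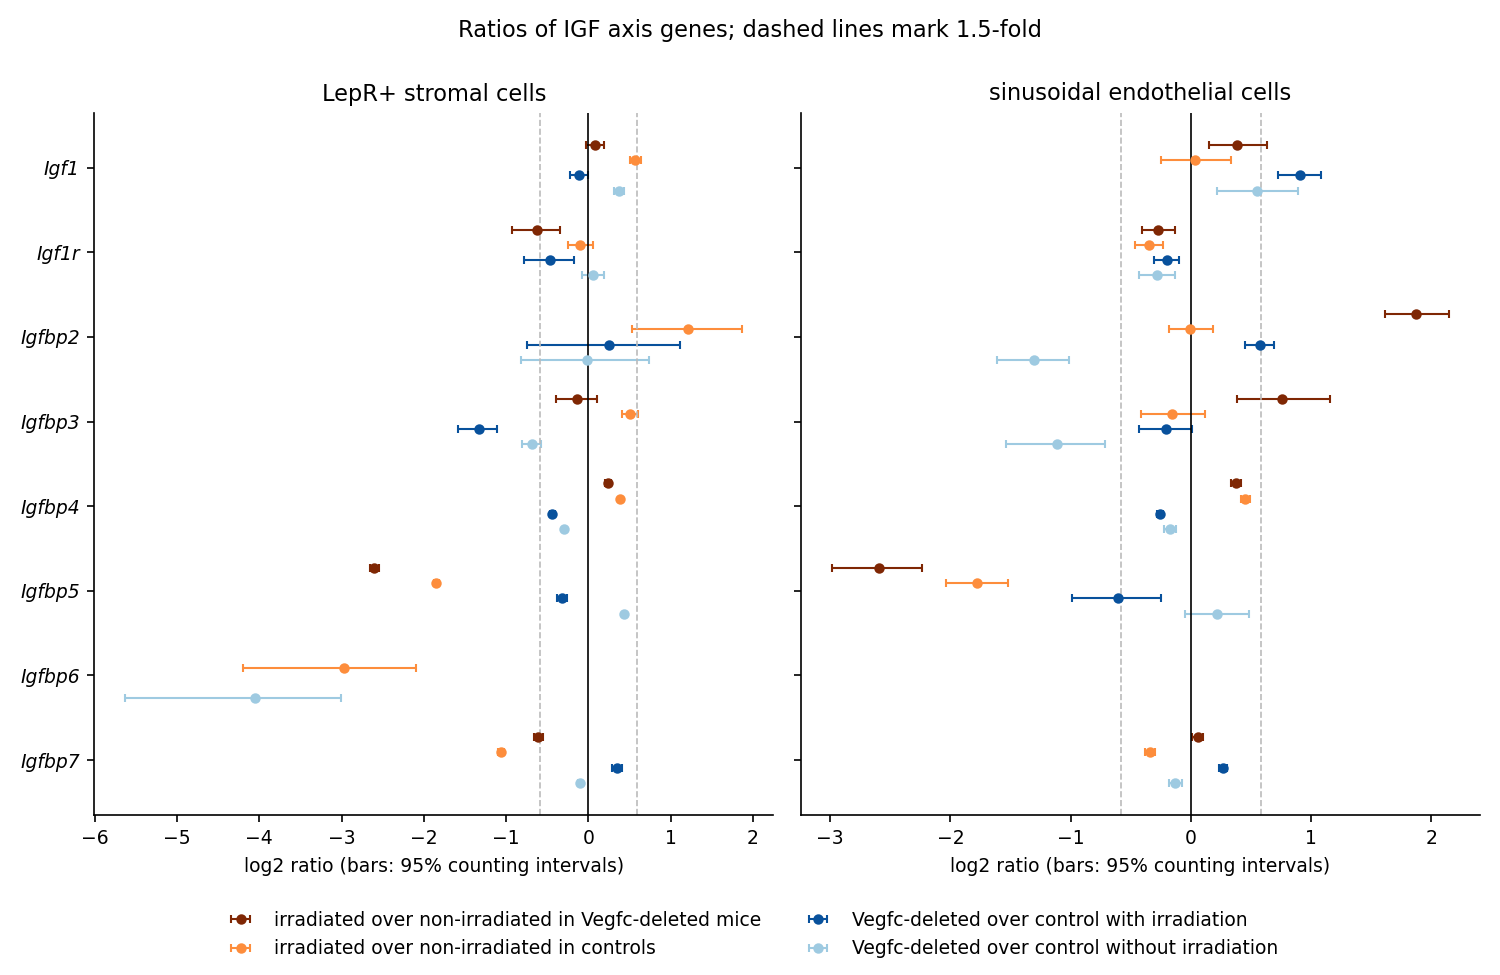
Log2 ratios of the 8 members for the 4 contrasts in LepR+ stromal (left) and sinusoidal endothelial cells (right), with 95% counting intervals. Members with fewer than 30 UMIs in both libraries are not drawn, and dashed lines mark 1.5-fold. Igfbp5 lies at -2.60 and -1.85 under irradiation in LepR+ cells of Vegfc-deleted mice and controls, and Igfbp3 at -1.34 and -0.69 for Vegfc-deleted over control cells with and without irradiation.

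The third comparison set Vegfc-deleted against control mice in LepR+ stromal cells. Igfbp3 was lower in Vegfc-deleted mice both with and without irradiation. With irradiation 1 of 7 members was called, lower, where 20.8% of 9983 genes were called. Without irradiation 2 of 8 members were called, both lower, where 6.7% of 11269 genes were. The median log2 ratio of members was -0.32 with and -0.06 without irradiation, against -0.09 and -0.01 over all genes. These comparisons share libraries with those on irradiation.

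Igfbp3 stood at 110 CPM (93.6 to 128) in irradiated Vegfc-deleted and 277 CPM (262 to 293) in irradiated control LepR+ cells. Without irradiation it stood at 121 CPM (113 to 130) in Vegfc-deleted and 195 CPM (187 to 203) in control cells. The level was 2.52-fold lower in Vegfc-deleted mice with irradiation (2.15 to 2.99) and 1.61-fold lower without it (1.49 to 1.75). The share of cells with a UMI was lower too, at 35.4% against 49.8% with irradiation and 33.7% against 50.6% without it. Erythroid shares were 0% and 0.410% in the irradiated and 0.478% and 1.10% in the non-irradiated Vegfc-deleted and control library. Within cluster 12 Igfbp3 stood at 117 CPM in irradiated Vegfc-deleted and 284 CPM in irradiated control cells, and within cluster 2 at 122 CPM in non-irradiated Vegfc-deleted and 198 CPM in non-irradiated control cells. Both Igfbp3 calls held under every alternative run that gave them a value, with log2 ratios of -1.34 to -0.77 with and -0.86 to -0.60 without irradiation. Leaving out cells with haemoglobin or granule UMIs left 8 Vegfc-deleted and 2 control cells without irradiation, so that call was not checked there.

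Igfbp6 was the other call without irradiation, at 0.902 CPM in Vegfc-deleted and 16.1 CPM in control cells, with 139 of the 180 control UMIs in 1 cell. Its log2 ratio was -4.05, and without doublet removal it was -0.18. Igfbp5 had log2 ratios of -0.32 (-0.39 to -0.26) with and 0.43 (0.41 to 0.44) without irradiation, so that the Vegfc-deleted library was the lower one with irradiation and the higher one without it. In irradiated cells with fewer than 10 haemoglobin or granule UMIs, 109 Vegfc-deleted and 370 control cells, the first value was 0.30. RNA of 3 immunoglobulin genes, which mark plasma cells, summed to 12535 CPM in irradiated Vegfc-deleted LepR+ cells against 26.5 CPM in irradiated controls, and its part in these ratios was not tested.

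Igf1 had log2 ratios for Vegfc-deleted over control of -0.11 (-0.23 to -0.00) with and 0.37 (0.31 to 0.44) without irradiation in LepR+ cells, neither past the call. The irradiated value was 0.11 without haemoglobin or granule cells and 0.02 in thinned cells. Igf1r had -0.47 (-0.79 to -0.18) with and 0.06 (-0.07 to 0.19) without irradiation. In thinned cells its irradiated value was -0.83, called lower, and without doublet removal its non-irradiated value was -0.04. Igfbp4 was lower by value in both states, at -0.44 (-0.47 to -0.40) and -0.29 (-0.31 to -0.27). Igfbp7 had 0.35 (0.29 to 0.41) with and -0.10 (-0.12 to -0.07) without irradiation. Igfbp2 had 0.25 (-0.75 to 1.11) with and -0.02 (-0.82 to 0.73) without irradiation, and the irradiated value was -1.53 without the highest cell of each library, -0.10 without doublet removal, 2.04 with the stricter filter and -3.31 without haemoglobin or granule cells.

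The irradiation ratios of the 2 genotypes were set against each other in LepR+ cells as well. Igfbp5 differed by -0.75 on the log2 scale (-0.82 to -0.69), deleted minus control, and Igfbp3 by -0.65 (-0.91 to -0.39), both more than 1.5-fold. Igf1 differed by -0.49 (-0.61 to -0.36), Igf1r by -0.53 (-0.85 to -0.21), Igfbp4 by -0.15 (-0.19 to -0.11) and Igfbp7 by 0.45 (0.38 to 0.51). Igfbp6 differed by 1.40 (-2.86 to 5.65), with an interval that held 0. Members that differed 1.5-fold with an interval that left out 0 numbered 0 without doublet removal and 4 with the stricter cell filter.

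The fourth comparison set Vegfc-deleted against control mice in sinusoidal endothelial cells. Igf1 was higher in Vegfc-deleted mice with irradiation, and Igfbp2 and Igfbp3 were lower without it. With irradiation 2 of 7 members were called, 1 higher and 1 lower, where 8.98% of 11335 genes were called. Without irradiation 2 of 7 were called, both lower, where 8.14% of 8798 genes were. The median log2 ratio of members was -0.20 with and -0.18 without irradiation, against -0.02 and 0.01 over all genes.

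Igf1 stood at 72.8 CPM (66.2 to 79.9) in irradiated Vegfc-deleted and 38.9 CPM (36.0 to 42.0) in irradiated control sinusoidal cells, 1.87-fold higher in the deleted mice (1.65 to 2.11). Without irradiation it stood at 55.6 CPM (48.3 to 63.8) in Vegfc-deleted and 37.9 CPM (31.4 to 45.4) in control cells, a log2 ratio of 0.55 (0.22 to 0.89) that missed the call. In these class sums both Vegfc-deleted libraries were above both control libraries. In cells thinned to 1500 UMIs the log2 ratio without irradiation was 0.17. The share of cells with a UMI was 33.4% against 23.8% with irradiation and 34.5% against 20.1% without it. Within cluster 0 the levels were 72.9 CPM in irradiated Vegfc-deleted and 38.7 CPM in irradiated control cells, and within cluster 8 they were 54.8 CPM in non-irradiated Vegfc-deleted and 38.6 CPM in non-irradiated control cells. Macrophage markers, as the other class with high Igf1, summed to 3276, 3075, 3257 and 3234 CPM over 13 genes in irradiated Vegfc-deleted, irradiated control, non-irradiated Vegfc-deleted and non-irradiated control sinusoidal cells, with 2 of them at 0 in the last. These sums were not split by gene, so RNA made by sinusoidal cells and RNA from macrophages cannot be told apart in them. The part of macrophage RNA in the Igf1 levels was not tested.

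Igfbp2 was 2.47-fold lower in non-irradiated Vegfc-deleted than in non-irradiated control cells (2.02 to 3.05), from 139 and 292 UMIs. With irradiation its log2 ratio was 0.57 (0.45 to 0.69), just short of the call, so the order of the genotypes was opposite in the irradiated libraries. Without doublet removal that ratio was 0.59, called higher. Igfbp3 was 2.17-fold lower without irradiation (1.64 to 2.91), and its log2 ratio with irradiation was -0.21 (-0.43 to 0.01) and 0.14 in thinned cells. Igfbp5 was called lower with irradiation, 1.52-fold (1.19 to 1.98), from 77 and 323 UMIs, and the call was lost under 5 alternatives, at log2 ratios of -0.54 to -0.18. Igf1r, Igfbp4 and Igfbp7 stayed within 1.5-fold in both states, with log2 ratios of -0.28 to 0.27. In thinned cells Igf1r was called lower without irradiation, at -0.66.

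Single cells of the LepR+ class carried several members at once. Among cells thinned to 1500 UMIs, the median number of members with a UMI was 3 in irradiated Vegfc-deleted, 3 in irradiated control, 4 in non-irradiated Vegfc-deleted and 4 in non-irradiated control mice. Igfbp4 and Igfbp5 were found together in 58.8%, 70.3%, 94.6% and 92.9% of these cells. Sinusoidal cells had a median of 2 members in every library, and 96.9%, 91.2%, 89.2% and 82.9% of erythroid cells had none.

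Across 41 sums of a class in a library, the members were set beside 8430 other genes by Pearson's r of log2(CPM + 1). These sums share libraries, depth and free RNA, so r is a description. The genes most like Igf1 were Lpl (0.947), Cmbl (0.915) and Nr1h3 (0.882), and those most like Igfbp5 were Gdpd2 (0.952), Cxcl14 (0.927) and Serping1 (0.918). For Igfbp2 they were Palmd (0.964), Chst7 (0.962) and Zfpm2 (0.961), and for Igfbp7 Heph (0.959), Cdc42ep1 (0.957) and Tcf7l1 (0.955). Igfbp4 was nearest to Plpp3 (0.924), Igfbp3 to Prss23 (0.933), Igf1r to Klf7 (0.880) and the sparse Igfbp6 to Ifitm1 (0.701). Among the members, Igfbp4 and Igfbp7 were most alike (0.894), and Igf1 and Igf1r had an r of 0.15.

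Of 49 other genes of the pathway, 38 had enough UMIs in LepR+ cells under irradiation. In Vegfc-deleted mice 4 of them were called higher and 8 lower, and in controls 8 higher and 4 lower. The 12 called of 38 in each genotype stand beside 30.5% of all genes in Vegfc-deleted mice and 27.8% in controls, a share near the background. Their median log2 ratio was 0.06 in Vegfc-deleted mice and 0.25 in controls, beside 0.12 and 0.16 over all genes. Ghr, the growth hormone receptor, rose in both genotypes, to 1005 CPM in irradiated Vegfc-deleted and 877 CPM in irradiated control cells, against 466 and 405 CPM without irradiation, log2 ratios of 1.11 in each. Pappa2, a protease that cleaves Igfbp3 and Igfbp5 proteins, rose to 27.6 CPM in irradiated Vegfc-deleted and 11.7 CPM in irradiated control cells, against 1.35 and 1.61 CPM. Its counts were small, at 42 and 54 UMIs with and 9 and 18 UMIs without irradiation. Htra1, a secreted serine protease that also cleaves binding proteins, fell to 56.4 and 81.8 CPM, against 229 and 207 CPM. Socs2, which dampens growth hormone signalling, fell to 131 and 79.0 CPM, against 218 and 151 CPM.

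By group, the LepR+ calls under irradiation in Vegfc-deleted mice were 2 higher and 2 lower of 4 tested binding-protein proteases and inhibitors, 1 and 2 of 7 receptor adaptors, 0 and 1 of 18 genes of the PI3 kinase, Akt, mTOR and FoxO group, 1 and 3 of 5 of the growth hormone input, and 0 of 2 RNA-binding proteins of Igf2 mRNA. In controls they were 1 and 1 of 3, 1 and 0 of 7, 2 and 1 of 18, 1 and 1 of 5, and 1 and 1 of 2 in the same groups. These lists are small, and 30.5% and 27.8% of all genes were called in the same contrasts. The insulin receptor gene Insr and Igf2 made up the other calls, both higher in controls. Insr stood at 106 CPM in irradiated and 44.4 CPM in non-irradiated control cells, and Igf2 at 7.60 and 2.87 CPM, from 35 and 32 UMIs. The 4 genes higher in Vegfc-deleted mice were Ghr, Pappa2, Stc1 and Grb14, and the 4 lower in controls were Htra1, Socs2, Rheb and Igf2bp3. Between genotypes, 5 other genes were called higher (Pappa2, Stc1, Grb14, Rheb and Socs2) and 4 lower (Pappa, Irs2, Rictor and Stat5b) of 38 with irradiation, where 20.8% of all genes were. Without irradiation 2 of 37 were, both higher, where 6.7% of all genes were, namely Insr (72.9 CPM in Vegfc-deleted and 44.4 CPM in control cells) and the adaptor Irs2 (214 and 126 CPM), with Irs2 at 76.1 CPM in irradiated Vegfc-deleted and 180 CPM in irradiated control cells. Apart from Ghr, Pappa2, Htra1 and Socs2, the genes of this paragraph were named after their values were seen.

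In sinusoidal cells 2 other genes were called higher and 2 lower of 32 under irradiation in Vegfc-deleted mice, where 22.4% of all genes were called. In controls 2 were higher and 3 lower of 33, where 25.9% were. Their median log2 ratio was -0.00 in Vegfc-deleted mice and 0.11 in controls, beside 0.15 and 0.18 over all genes. Socs2 rose to 379 CPM in irradiated Vegfc-deleted and 295 CPM in irradiated control cells, against 118 and 122 CPM without irradiation, log2 ratios of 1.68 and 1.27. It thus moved up in sinusoidal and down in LepR+ cells. Stc1, whose product inhibits the protease encoded by Pappa, fell to 2.44 CPM in irradiated Vegfc-deleted and 5.39 CPM in irradiated control cells, against 90.5 and 65.6 CPM, log2 ratios of -5.17 and -3.60. The adaptor Grb14 fell to 1.95 and 2.01 CPM, against 8.18 and 7.71 CPM, from 12 to 34 UMIs a library. The other calls were Pik3r2, higher in Vegfc-deleted mice, and Foxo4, higher, and Pappa, lower, in controls. Between genotypes, 0 genes were called higher and 2 lower of 33 with irradiation (8.98% of all genes), and 2 higher and 0 lower of 31 without it (8.14% of all genes). These were Pappa and Stc1 with irradiation and Akt2 and Foxo4 without it. Apart from Socs2, Stc1 and Grb14 under irradiation, the sinusoidal genes were named after their values were seen. Pappa stood at 1.95 CPM in Vegfc-deleted and 3.08 CPM in control cells, Stc1 at 2.44 and 5.39 CPM, Akt2 at 20.7 and 13.2 CPM and Foxo4 at 21.0 and 9 CPM.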

How the data were processed

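The deposited values are raw counts of UMIs by gene and barcode, made by the authors with Cell Ranger 2.1.1 on mm10 per the submitters' processing notes; the file headers give software 3.1.0. The sources used here name neither the annotation release nor how cells were called. Barcodes with under 500 genes or over 10% mitochondrial UMIs (895 to 2200 a library) and those with the highest Scrublet scores (0.8% per 1000 barcodes, 211 to 479 a library) were left out. Cells of all libraries were clustered together with scanpy 1.11.5 and leidenalg 0.10.2 (Python 3.11.15, 2000 variable genes without 17 IGF genes, 40 principal components, 20 neighbours, resolution 1, seed 7), without batch correction. Clusters were named from 19 marker lists, so differences from the study's own classes may come from these rebuilt names. Clusters 13, 15, 24 and 31 held few UMIs per cell for their samples and were kept in their classes.

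UMIs were summed per class and library and given per 1000000 UMIs of the class (CPM). Log2 ratios used a prior of 0.5 counts, and calls needed a 1.5-fold difference and 30 counts in 1 library. Classes with under 30 cells in a library entered no ranking of classes. The 8 members were all named. Other genes came from 8 pathway lists and were named where called in the same direction in both genotypes or both irradiation states, with the exceptions said in the text. The members and lists were chosen with earlier results of these data known. Scripts were tested on simulated data. RefSeq promoters came from GRCm38.p6, matched by symbol for all 8 members. Depth limits precision as the intervals show.

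Alternatives were resolution 2, IGF genes kept for clustering, no doublet removal, at least 1000 genes and at most 5% mitochondrial UMIs, thinning to 1500 UMIs, TMM factors, a prior of 5, a minimum of 10 counts and leaving out cells with 10 haemoglobin or granule UMIs. Leaving out low-UMI clusters and the highest cell of each member were added after seeing the data.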

Additional observations from a re-analysis of the deposited data

Results flagged for a closer look

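Some ratios had opposite signs in the 2 genotypes or in the 2 irradiation states, and none of these differences was tested, because each group has 1 library. In LepR+ stromal cells the log2 ratio of Vegfc-deleted over control cells was -0.32 with and 0.43 without irradiation for Igfbp5, 0.35 and -0.10 for Igfbp7, and -0.11 and 0.37 for Igf1. In sinusoidal endothelial cells it was 0.57 with and -1.31 without irradiation for Igfbp2, and 0.27 and -0.13 for Igfbp7. The log2 ratio of irradiated over non-irradiated sinusoidal cells for Igfbp7 was 0.05 in Vegfc-deleted mice and -0.34 in controls. Of these values, that of Igfbp2 without irradiation passed 1.5-fold. The Igfbp5 value with irradiation was 0.30 in cells with fewer than 10 haemoglobin or granule UMIs, where the Igf1 value was 0.11. In thinned cells that Igf1 value was 0.02, and the Igfbp7 value of irradiated Vegfc-deleted sinusoidal cells was -0.03, or -0.06 with TMM factors.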

How the results depend on the processing

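Of 18 calls of members, all 18 were kept with IGF genes among the variable genes, with TMM factors and without the highest cell of each member, 17 with the stricter cell filter and without low-UMI clusters, 16 at resolution 2 and with a prior of 5, 15 in thinned cells and 14 without doublet removal. Igfbp5 fell in LepR+ cells under each of these 9, at -2.78 to -2.29 in Vegfc-deleted and -2.03 to -1.77 in control mice. Thinning moved 8 of 57 ratios over 1.5 times, with fewer counts left. Counts of members called also moved. In sinusoidal cells under irradiation in controls, 1 became 2 in thinned cells, by Igfbp3. For sinusoidal cells of irradiated Vegfc-deleted over control mice, 2 became 1 at resolution 2, in thinned cells and without haemoglobin or granule cells, and the Igfbp5 call was also lost with a prior of 5. Without doublet removal the Igfbp5 call was lost and Igfbp2 was called higher. Without irradiation 2 became 3 in thinned cells, by Igf1r. For LepR+ cells the genotype count without irradiation was 1 in place of 2 without doublet removal. With irradiation it was 2 in place of 1 with the stricter filter, in thinned cells, without haemoglobin or granule cells and without the highest cells. In LepR+ cells 2 members had irradiation ratios that differed 1.5-fold between genotypes with an interval that left out 0. Their number became 0 without doublet removal, 4 with the stricter filter and 1 in thinned cells. Igfbp6 in irradiated over non-irradiated control LepR+ cells reversed from -2.97 to 1.60 without doublet removal. The cause of these moves was not tested. Leaving out cells with 10 haemoglobin or granule UMIs left 0 to 8 cells in the non-irradiated classes. Irradiation ratios, and genotype ratios without irradiation, therefore had no value there. No paired analysis was possible because each group has 1 library.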

Other observations

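Pericytes and smooth muscle cells had too few cells to enter a comparison, with 7, 15, 16 and 18 in irradiated Vegfc-deleted, irradiated control, non-irradiated Vegfc-deleted and non-irradiated control mice. Igfbp7 stood at 5053, 3810, 4139 and 4413 CPM there, above every LepR+ and sinusoidal value. Igf1 stood at 350, 236, 189 and 486 CPM and Igfbp5 at 834, 3443, 2296 and 996 CPM in the same cells. The Igf1 value of non-irradiated controls and the Igfbp5 value of irradiated controls were above the LepR+ level of the same library. The other Igf1 and Igfbp5 values were below it.

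Cluster 19, which was left unnamed and is led by Retnlg, S100a9 and S100a8, genes of neutrophils, also held stromal members. Igfbp5 stood there at 506 CPM in irradiated Vegfc-deleted, 1101 CPM in irradiated control, 60.1 CPM in non-irradiated Vegfc-deleted and 1934 CPM in non-irradiated control mice, from 10, 30, 202 and 71 cells. Igfbp4 stood at 4039, 3276, 31.4 and 1052 CPM.

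Igf1r in erythroid cells stood at 1.52, 4.29, 20.5 and 14.2 CPM in irradiated Vegfc-deleted, irradiated control, non-irradiated Vegfc-deleted and non-irradiated control mice. The mix of erythroid clusters differed as well. Cluster 4, with a median of 24703 UMIs per cell, held 4, 5, 655 and 581 cells in the same groups. The part of this mix in the erythroid levels was not tested. In megakaryocytes Igf1r stood at 83.7, 187, 247 and 54.3 CPM, from 44, 219, 140 and 142 cells. The highest megakaryocyte held 7 of 28, 28 of 289, 50 of 249 and 21 of 53 UMIs in the same groups. In basophils and mast cells Igf1r stood at 307, 412, 357 and 279 CPM, from 25, 35, 26 and 216 cells. Both Vegfc-deleted libraries thus had under 30 basophils and mast cells.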
